A study of Drosophila melanogaster with 16 samples.

Results

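The genes for secreted digestive enzymes of the gut were examined in control and *dfr14* larvae of *Drosophila melanogaster*. They were taken as every row of the deposited tables whose symbol begins with Jon and a digit, with Mal-A or Mal-B, or with Amy-, or ends in Try. This gave 38 of the 12509 genes of the body table, namely 16 Jonah proteases, 10 trypsins, 10 maltases and 2 amylases, and 15 of the 9731 genes of the table of the brain-ring gland complex (BRGC), all of which are also in the body table. The BRGC members were 6 Jonah genes, 4 trypsins, 4 maltases and 1 amylase.

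RNA was sequenced from wandering larvae of the last stage before pupation, with 4 control and 4 *dfr14* libraries of the BRGC and 4 of each genotype of the remaining body, 16 in all. Controls were *w1118*. The mutant larvae were homozygous for *dfr14*, a small CRISPR deletion just behind the first stop codon of *dfr* (listed as *vvl*), which removes the longer Dfr-L protein made by stop codon readthrough. The line came from a *vasa::Cas9* stock and had been outcrossed only to a *w;;MKRS/TM6B* balancer stock when it was sequenced, so the lesion and other differences between this single line and *w1118* cannot be told apart. The paper reports that homozygous *dfr14* larvae pupariated later than controls. Differences of age or stage between the sequenced genotypes cannot be told apart from the lesion either. The methods describe bodies without BRGCs, mouth hooks or salivary glands, taken from other larvae than the BRGCs, and 4 biological replicates per group. The genotype tag of the sample records follows the tissue and contradicts the titles, and the titles were followed.

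The Jonah genes encode chymotrypsin-like serine proteases, and the trypsins cut proteins behind basic residues. Amylases split starch into shorter sugars, and maltases (alpha-glucosidases) release glucose from them. In larvae most of these enzymes are made by midgut epithelial cells and secreted into the gut lumen, and the wandering stage follows the end of feeding.

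Levels are given as CPM, reads per M reads counted to genes (M being 1e6) after the authors' scaling of the libraries. Libraries held 17.1 to 30.1 M counted reads, and they are numbered only by their place in the deposited tables. The genotypes were compared within each tissue with limma on the deposited log2 values, with p-values adjusted over the whole table (Benjamini-Hochberg, threshold 0.05). The prior count in these values shrinks the fold changes of genes at low levels. In bulk RNA, fewer cells of a type and less RNA per cell cannot be told apart. The readthrough lesion leaves the *vvl* transcript in place, and its level was 63.1 to 68.4 CPM in control and 90.5 to 115.6 CPM in *dfr14* BRGCs, where it passed the test (log2 fold change 0.68, adjusted p = 0.00077). In bodies it was 47.8 to 59.4 and 67.7 to 83.3 CPM (0.56, adjusted p = 0.066). Some body libraries stood apart. Control library 4 lacked reads for 1685 genes (32 to 189 in the rest). The summed level of 10 testis and Y chromosome markers was 0.69 CPM there, against 29.4 to 374 CPM in the other body libraries. The share of male larvae in each library was not tested. The summed level of 6 salivary gland markers was 10173 CPM in control library 3 and 1295 CPM in control library 4, against 0.74 to 8.74 CPM in the others.

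In the body the 38 genes together took 0.683 to 3.93% of the scaled reads of a library. Divided by exon length, the highest levels were those of the Jonah proteases *Jon65Aiv* (4065 CPM per kb, mean of 8 libraries), *Jon65Aiii* (3811 CPM per kb) and *Jon74E* (1659 CPM per kb). The leading trypsins were *epsilonTry* (1249 CPM per kb), *alphaTry* (910.8 CPM per kb) and *betaTry* (605 CPM per kb). Maltases and amylases stood far lower per kb, with *Mal-A5* at 198.8, *Mal-A6* at 59.8 and *Mal-A8* at 46.3 CPM per kb, *Amy-d* at 28.7 and *Amy-p* at 9.12 CPM per kb. The least abundant of the 38 was the maltase *Mal-B1* at 0.41 CPM per kb.

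**Figure D1:**
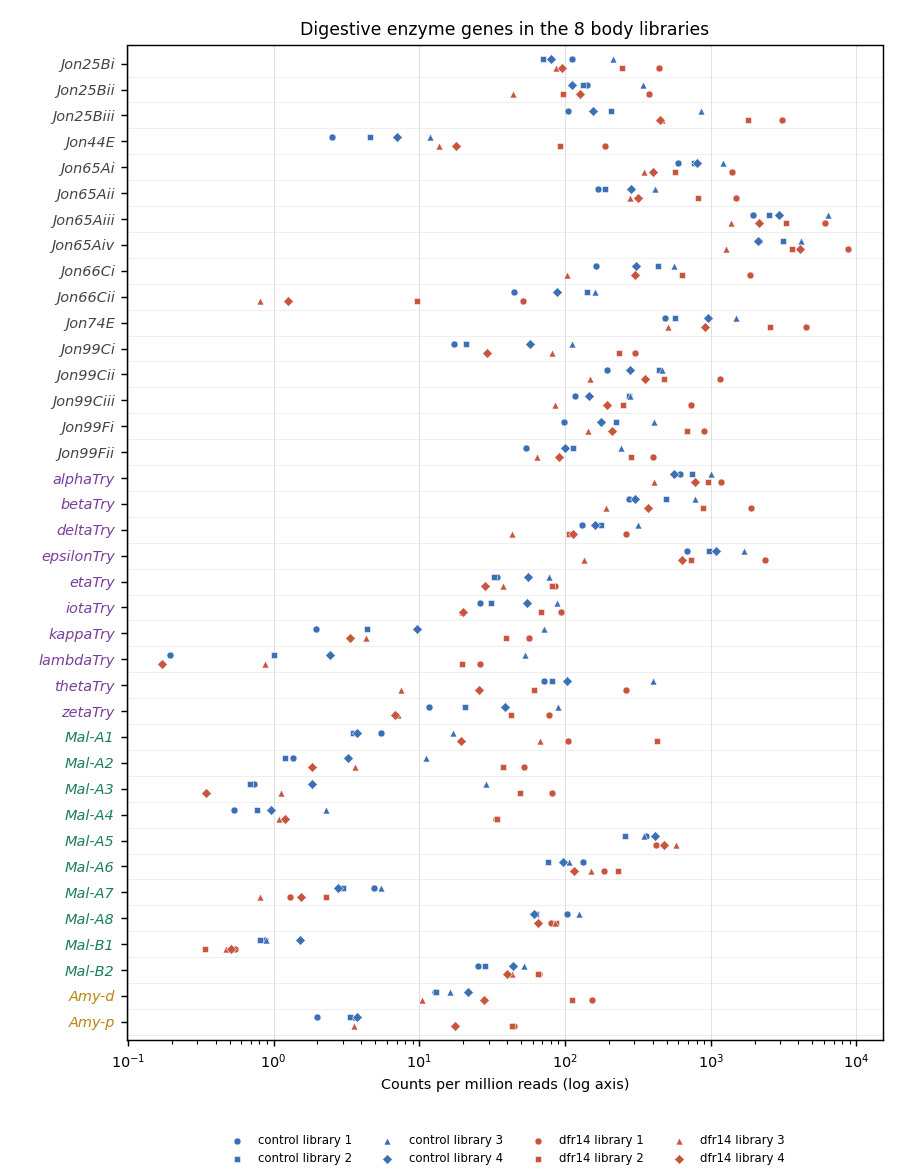
CPM on a log axis for each of the 38 digestive enzyme genes in the 8 body libraries, with 1 point per library (blue, control; red, dfr14; marker shapes give the library number). Control library 3 is the highest control for 33 of the 38 genes and dfr14 library 1 the highest mutant for 32.

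Most members peaked in the same libraries of a genotype. The summed level of all 38 was 8919, 12287, 22614 and 11637 CPM in control libraries 1 to 4 and 39347, 20199, 6830 and 12505 CPM in *dfr14* libraries 1 to 4. The groups overlapped widely, with a 2.54-fold range among controls and a 5.76-fold range among *dfr14* libraries. Control library 3 was the highest control for 33 of 38 members (86.8%), against 28.0% of all genes in the body table. In the mutant, library 1 was the highest for 32 members (84.2%, against 29.1% of all genes) and library 3 the lowest for 24 (63.2%, against 22.1%).

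The summed level of 7 midgut markers, all measured, ranged from 423 to 965 CPM in controls and from 561 to 1248 CPM in *dfr14*, and it too peaked in control library 3 and *dfr14* library 1. Of the 9 other marker lists, those of muscle and Malpighian tubule were highest in the same libraries and the other 7 were not, fat body and trachea being highest in control library 4 and *dfr14* library 1 and hemocytes in control library 3 and *dfr14* library 2. The sum of 5 muscle markers was 1332, 2179, 6378 and 2937 CPM in the controls and 11018, 5048, 904 and 582 CPM in *dfr14*, and that of 3 Malpighian tubule markers was 12.5 to 81.2 CPM in controls and 18.1 to 305 CPM in *dfr14*. None of these 15 markers passed the test (1 had an unadjusted p under 0.05), none was at 0 in all libraries, and the part of tissue content in the members' levels was not tested.

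**Figure D2:**
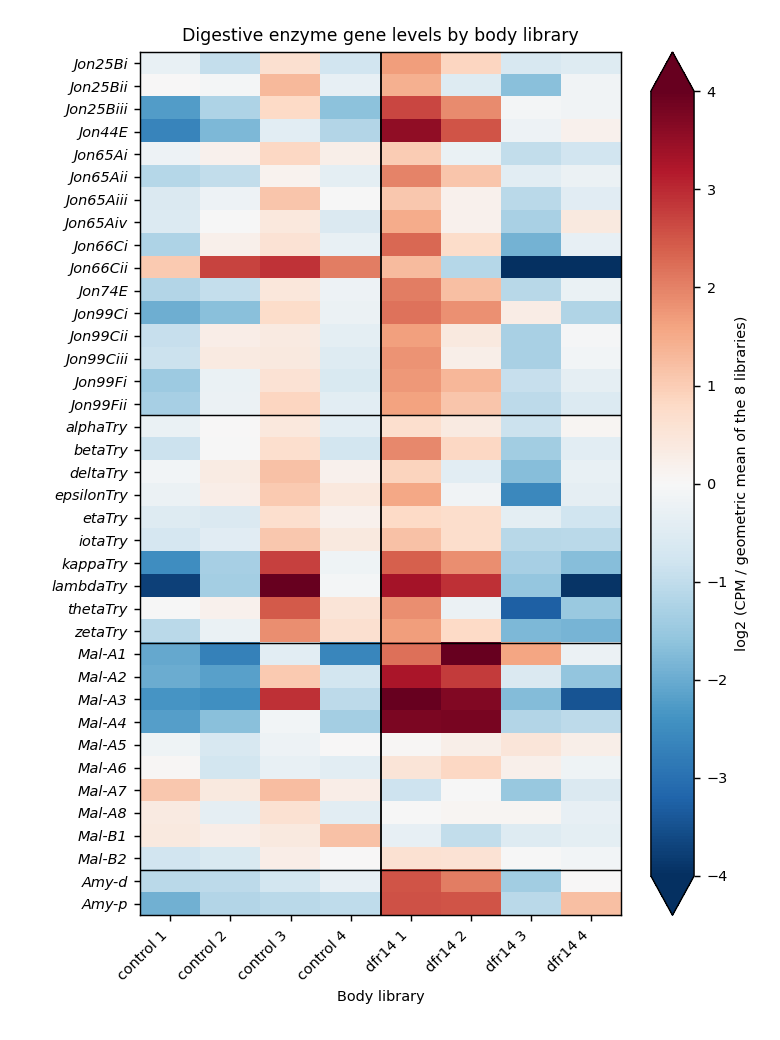
Heat map of the 38 genes (rows, grouped as Jonah, trypsin, maltase and amylase genes) by body library (columns), coloured by the log2 ratio of the CPM to the gene's geometric mean over the 8 libraries. Control library 3 and dfr14 libraries 1 and 2 are mostly red, and Jon66Cii departs from its neighbours, with 0.80 and 1.25 CPM in dfr14 libraries 3 and 4.

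None of the 38 members passed the test in the body, where 177 of all 12509 genes did (percent called 1.41%). At an unadjusted p under 0.05 there were 9 members by limma and 7 by limma with voom weights on the recovered reads, which also called none after adjustment, and 13.5% of all genes had such a p. The members' median log2 fold change was 0.44 (26 positive, 12 negative) against 0.12 over all genes, of which 63.0% were positive. Their median standard error was 0.69, against 0.28 for genes within the same range of mean CPM. Without *dfr14* library 3, *Amy-p* alone passed (log2 fold change 3.35, adjusted p = 0.034 by limma), and no member passed without any other single library. The genotypes did not overlap for 5 members (*Mal-A1*, *Mal-A5* and *Jon44E* above, *Mal-A7* and *Mal-B1* below the controls), where 9.15% of all genes did not overlap.

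Among the Jonah genes the abundant members showed no separation of genotypes. *Jon65Aiii* was at 1962, 2525, 6350 and 2928 CPM in controls and 6128, 3272, 1381 and 2134 CPM in *dfr14* (log2 fold change -0.16 ± 0.55 SE, adjusted p = 0.97). For *Jon65Aiv* the values were 2151, 3149, 4195 and 2118 CPM in controls and 8817, 3594, 1277 and 4100 CPM in *dfr14* (0.37 ± 0.58, adjusted p = 0.96). In both genes the lowest of the 8 libraries was mutant library 3. *Jon74E* ranged from 483 to 1493 CPM in controls and from 508 to 4504 CPM in *dfr14*, again with library 3 of the controls and library 1 of the mutants on top (log2 fold change 0.94 ± 0.72, adjusted p = 0.70).

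The extremes of the Jonah group were less abundant genes. *Jon44E* had 2.53, 4.62, 11.8 and 7.01 CPM in control bodies and 188, 91.7, 13.8 and 17.9 CPM in *dfr14* bodies. Every mutant library lay above every control, though mutant library 3 by little (log2 fold change 3.0 ± 0.92, adjusted p = 0.21). The opposite order was seen for *Jon66Cii*, with 44.6, 141, 161 and 88.3 CPM in controls and 51.6, 9.64, 0.80 and 1.25 CPM in *dfr14*. Of the mutant libraries only library 1 reached the control range, and the difference did not pass the test (-4.29 ± 1.27, adjusted p = 0.19). The remaining 11 Jonah genes had log2 fold changes from -0.50 to 2.16, all with adjusted p of 0.33 or more.

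The trypsin genes lie side by side on chromosome arm 2R (BDGP6, from 11336840 to 11357537), and all 10 measured members had overlapping genotypes. *alphaTry* was among the steadiest, at 617, 748, 1007 and 557 CPM in controls and 1180, 963, 408 and 787 CPM in *dfr14* (log2 fold change 0.12 ± 0.35, 95% confidence interval -0.70 to 0.94). Between *betaTry* (274 to 786 CPM in controls and 192 to 1885 CPM in *dfr14*) and *epsilonTry* (684 to 1687 and 136 to 2351 CPM) the fitted difference had opposite signs, 0.47 ± 0.72 and -0.76 ± 0.80. The adjusted p was 0.96 and 0.84. The most negative trypsins were *thetaTry*, at 72.3 to 400 CPM in controls and 7.54 to 262 CPM in *dfr14* (-1.56 ± 1.08, adjusted p = 0.65), and *deltaTry*, at 130 to 317 and 43.4 to 262 CPM (-0.77 ± 0.54, adjusted p = 0.66). The row of *deltaTry* carries the full name of gammaTrypsin, a neighbouring copy, and reads of such copies may have been split or lost in counting. Of the trypsins *lambdaTry*, chosen here after its values were seen, had the widest 95% interval, from -4.36 to 5.18.

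The maltases held the members closest to the threshold. *Mal-A1*, an alpha-glucosidase gene at the start of the Mal-A cluster (2R, from 8449664 to 8473961), had 5.49, 3.5, 17 and 3.71 CPM in control bodies. Its *dfr14* values were 105, 431, 67.2 and 19.2 CPM, so that all 4 exceeded the highest control, and the mean was 7.43 ± 6.46 CPM (SD, n = 4) in controls and 156 ± 187 CPM in *dfr14*. The log2 fold change was 3.86 ± 0.95 (95% interval 1.65 to 6.08, adjusted p = 0.13 by limma), and it stayed between 3.10 and 4.59 whichever library was left out. *Mal-A4*, 0.53 to 2.29 CPM in controls, had 33.7 and 34.1 CPM in *dfr14* libraries 1 and 2 and 1.09 and 1.19 CPM in the other two (2.58 ± 1.3, adjusted p = 0.46).

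The neighbouring maltase genes *Mal-A2* (1.19 to 11.1 CPM in controls, 1.82 to 52.3 CPM in *dfr14*) and *Mal-A3* (0.69 to 28.9 and 0.34 to 81.3 CPM), chosen here after their values were seen, also varied widely within each genotype. The other 6 maltases varied less, 1.33- to 2.86-fold among the 4 libraries of a genotype. *Mal-A5* was at 361, 260, 351 and 414 CPM in controls and 421, 479, 576 and 482 CPM in *dfr14*, a small shift without overlap (0.51 ± 0.17, adjusted p = 0.25). With library size alone the shift was 0.27 (adjusted p = 0.59 by limma) and the genotypes overlapped. *Mal-A5* did not share the peak of the proteases in control library 3 or *dfr14* library 1. *Mal-A6* (76.9 to 133 CPM in controls, 114.8 to 231.7 CPM in *dfr14*) gave a difference of 0.71 ± 0.25 on the log2 scale (adjusted p = 0.28), and *Mal-A8* (61.2 to 125 and 65.0 to 86.6 CPM) one of -0.095 ± 0.25. *Mal-A7* went the other way, with 4.86, 3.0, 5.43 and 2.75 CPM in controls and 1.29, 2.29, 0.80 and 1.54 CPM in *dfr14* (-1.41 ± 0.41, adjusted p = 0.18). *Mal-B2*, of the Mal-B pair on arm 2L, was at 25.5 to 52.5 CPM in controls and 39.9 to 66.6 CPM in *dfr14* (0.54 ± 0.29, adjusted p = 0.50).

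The amylase pair, *Amy-p* and *Amy-d* (2R, from 17118636 to 17126369), was higher in most mutant bodies without passing the test. *Amy-p* was at 1.99, 3.35, 3.62 and 3.76 CPM in controls and 44.4, 43.3, 3.57 and 17.6 CPM in *dfr14* (2.56 ± 0.79, adjusted p = 0.21). For *Amy-d* the controls gave 12.8, 13.0, 16.4 and 21.7 CPM and the mutants 154, 112, 10.4 and 27.6 CPM (1.59 ± 0.82, adjusted p = 0.48). In both genes *dfr14* library 3 lay within or below the controls and the other 3 mutant libraries lay above them. The copies are near-identical in sequence, and how reads common to both were assigned is not given in the sources used here.

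**Figure D3:**
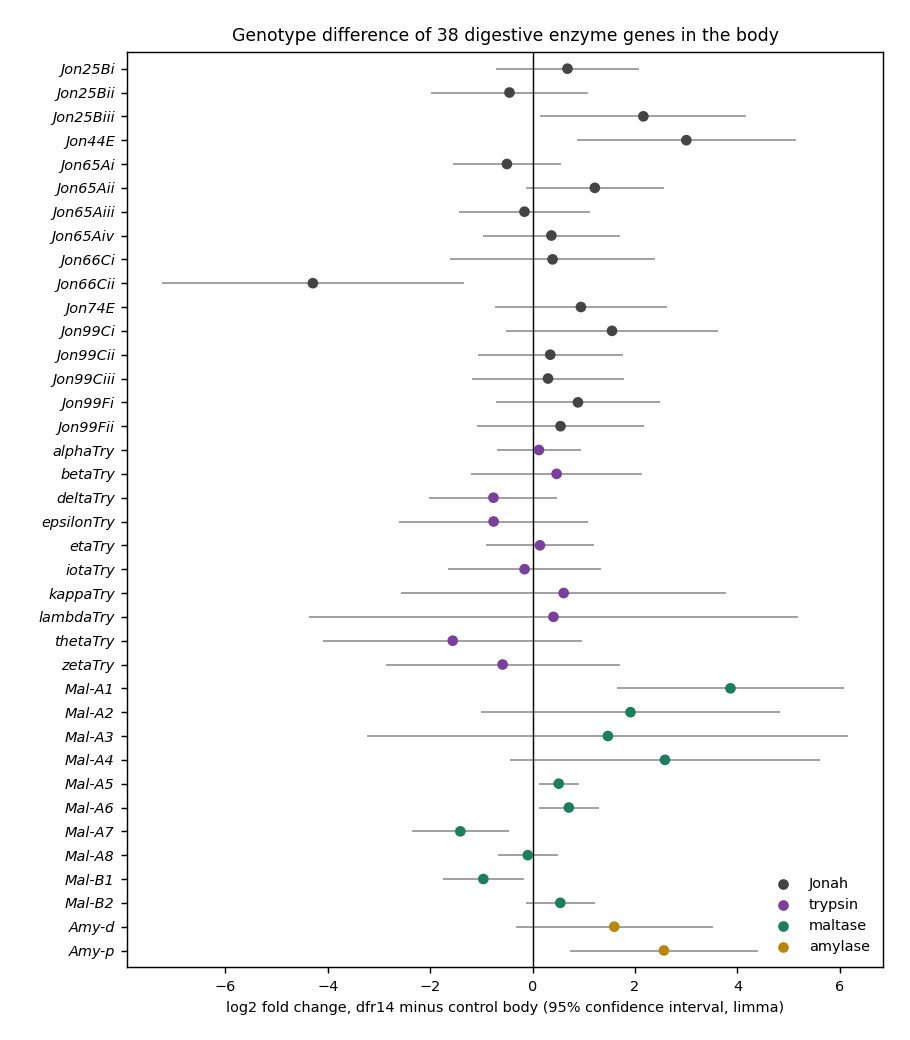
Fitted log2 fold change (dfr14 minus control body) of the 38 genes with its 95% confidence interval from limma, coloured by family. Values run from -4.29 (Jon66Cii) to 3.86 (Mal-A1), and most intervals cross 0.

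Because most members peaked in the same libraries, adjacent genes were also set against each other within each library. Of the members, 36 lie in 9 clusters and form 27 pairs of neighbours, and the pairs named here were chosen after their values were seen. For 11 of the 27 pairs the ratio did not overlap between the genotypes, where 10.9% of 9304 pairs of neighbouring genes in the body table did not overlap. Over all libraries the ratio of a pair varied 1.22- to 77.4-fold, with a median of 6.0, so many neighbours did not keep a fixed ratio. No test was made of these ratios, and neighbouring pairs share genes.

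The clearest case was the Jon66C pair. *Jon66Ci* exceeded *Jon66Cii* 3.63-, 3.12-, 3.52- and 3.5-fold in the 4 control bodies, and 36.0-, 65.6-, 128- and 241-fold in the 4 *dfr14* bodies. The ratio was thus nearly constant among controls, although the level of *Jon66Ci* alone varied 3.48-fold and that of *Jon66Cii* 3.60-fold there. *Jon25Biii* over *Jon25Bii* gave 0.75 to 2.48 in controls and 3.53 to 18.6 in *dfr14*. In the Jon65A cluster *Jon65Aii* stood lower against its neighbours in controls than in mutants, *Jon65Aiii* being 10.3 to 15.4 times *Jon65Aii* in controls and 3.99 to 6.72 times in *dfr14*.

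In a few pairs the ratio differed little. *Jon99Fi* over *Jon99Fii* was 1.68 to 1.95 in controls and 2.21 to 2.40 in *dfr14*, a separation of small size. *Jon99Cii* over *Jon99Ciii* stayed within 1.58 to 1.92 in all 8 libraries, the narrowest range of the 27 pairs. Clearer separations, also without overlap, were those of *Amy-d* over *Amy-p* (3.89 to 6.41 in controls and 1.57 to 3.48 in *dfr14*) and of *Mal-A8* over *Mal-A7* (21.1 to 23.0 and 37.8 to 107). The Jon65A and Jon66C clusters lie on 3L, the arm of *vvl*, at 0.74 to 0.75 Mb and 1.60 Mb from that gene. Line differences and the lesion cannot be told apart at these loci, nor can sequence differences that change how reads are assigned to copies. The same limit holds for the pairs on the other arms.

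**Figure D4:**
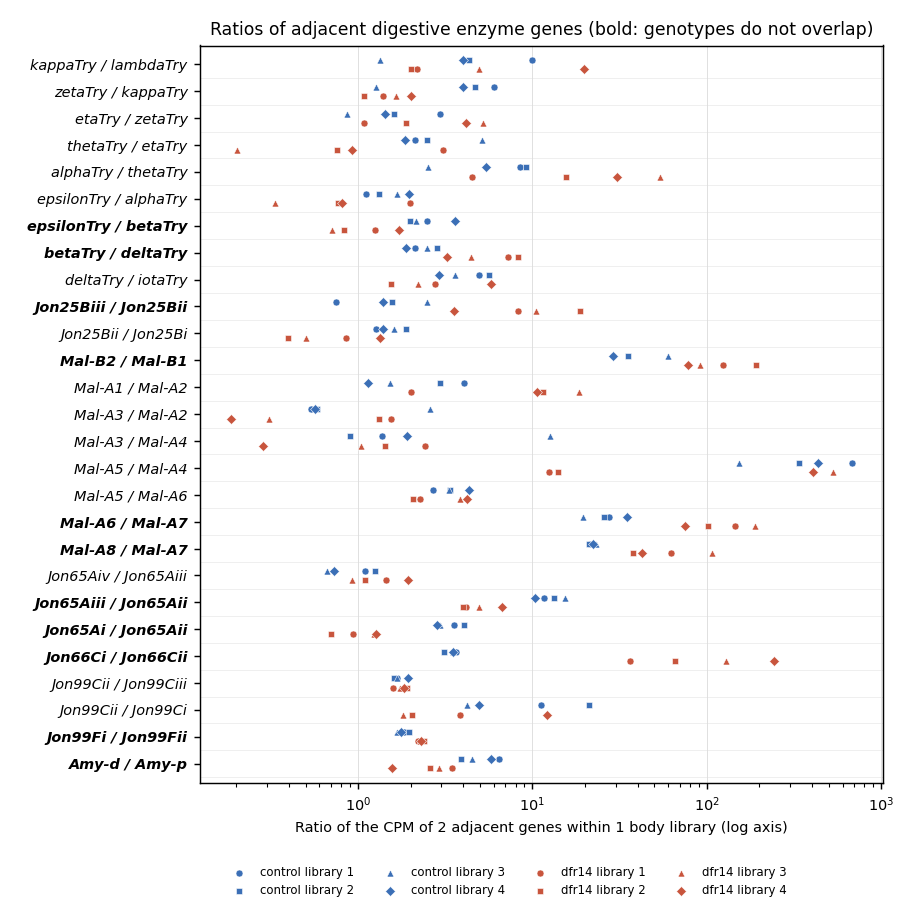
Ratio of the CPM of adjacent digestive enzyme genes within each body library (log axis; blue, control; red, dfr14), the more abundant gene over the other. For the 11 pairs in bold the genotypes do not overlap, and for Jon66Ci over Jon66Cii the 4 controls lie between 3.12 and 3.63 and the 4 mutants between 36.0 and 241.

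Further gut enzyme lists gave a few genes past the test in the body, where 1.41% of all genes passed and 63.0% had a positive log2 fold change. Of 9 other carbohydrate-cleaving enzymes measured, all had positive log2 fold changes and 1 passed. This was *Amyrel*, an amylase-related gene, at 2.96, 0.73, 2.47 and 1.65 CPM in controls and 59.5, 70.4, 16.7 and 22.8 CPM in *dfr14* (4.28 ± 0.61, adjusted p = 0.020). Of 13 lipases, the predicted lipase gene *CG6277* was higher (1.85 to 10.3 CPM in controls, 25.9 to 67.0 CPM in *dfr14*, 3.12 ± 0.53, adjusted p = 0.041) and *Lip1* lower (2.08 to 3.44 and 0.49 to 0.85 CPM, -1.90 ± 0.31, adjusted p = 0.037). Of 15 other serine proteases of the chymotrypsin type, *CG10477* was higher (0.26 to 0.58 and 1.66 to 2.95 CPM, 2.17 ± 0.36, adjusted p = 0.037).

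No gene passed by limma among 11 metallocarboxypeptidases, 5 aspartic proteases, 11 regulators of digestive enzyme genes, 13 midgut markers or 9 enteroendocrine peptides in the body. At an unadjusted p under 0.05 these lists held 2, 3, 1, 3 and 4 genes in that order. The midgut markers had a median log2 fold change of 0.42, with 12 of 13 positive (63.0% of all genes), and the regulators, among them the GATA factor gene *GATAe* (0.22) and the activin ligand gene *daw* (0.17), a median of 0.19.

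In the BRGC, 1 of the 15 members passed the test, the maltase *Mal-B2*, where 16.0% of all 9731 genes did and 10.1% were called higher in *dfr14*. *Mal-B2* was at 4.41, 4.21, 2.78 and 3.60 CPM in control BRGCs (139, 100, 59 and 89 reads) and at 14.3, 18.8, 22.1 and 18.7 CPM in *dfr14* BRGCs (308, 362, 578 and 399 reads). Each mutant library lay above every control by more than the spread within either genotype. Means were 3.75 ± 0.73 CPM (SD, n = 4) and 18.5 ± 3.20 CPM, a 4.92-fold ratio, and the log2 fold change was 2.28 ± 0.18 SE (95% interval 1.87 to 2.69, adjusted p = 4.6e-05 by limma). It passed in every alternative tried, at log2 fold changes of 2.13 to 2.40.

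Several markers of other cell types moved between the genotypes in the same BRGC libraries. Of 4 hemocyte markers, *NimC1* (log2 fold change 2.04) and *He* (0.96) were higher in *dfr14*. The other hemocyte markers, *Pxn* (-0.31) and *Hml* (-0.063), leaned the other way without passing the test. Also higher were 3 of 4 markers of trachea and cuticle, *obst-A*, *Gasp* and *serp* (0.58 to 0.94). Of 6 prothoracic gland markers, 4 were lower. The summed hemocyte level was 277 to 738 CPM in controls and 483 to 663 CPM in *dfr14*, and the part of these cell types in the *Mal-B2* difference was not tested. Of the midgut markers, 10 of 13 were measured in the BRGC, where *Myo31DF* (0.75) and *Myo61F* (0.45) rose and *esg* (-0.28) fell. Of the other lists in the BRGC, the alpha-mannosidase gene *LManII* (0.71), the trehalase gene *Treh* (0.43) and *daw* (0.71) were higher and the neuropeptide gene *NPF* (-0.76) lower, and no measured gene of the serine protease, carboxypeptidase or lipase lists passed by limma (2 with an unadjusted p under 0.05).

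*Mal-A5* was the only member with at least 45 CPM in each BRGC library. It had 86.6, 49.6, 93.1 and 45.3 CPM in controls and 82.6, 45.1, 64.6 and 74.9 CPM in *dfr14* (-0.0020 ± 0.27, 95% interval -0.60 to 0.59, adjusted p = 0.997). Per kb of exon its mean level in the BRGC was 32.2 CPM, against 4.77 CPM for *Mal-B2* and 0.17 to 5.33 CPM for the other 13 members. High and low libraries were found in both genotypes.

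The other 13 members were present in the BRGC mainly in 1 or 2 libraries. Their summed level was 1.62, 3.88, 39.8 and 2.07 CPM in control libraries 1 to 4 (51, 92, 845 and 51 reads) and 3.81, 81.4, 2.14 and 1.97 CPM in *dfr14* libraries 1 to 4 (82, 1570, 56 and 42 reads). Control library 3 and *dfr14* library 2 were thus the only libraries above 4 CPM. These were the top pair of the 8 for 10 of the 15 members, and the share of all genes with this top pair was not counted. Control library 3 was the highest control for 13 of the 15 (86.7%, against 28.7% of all BRGC genes). Library 2 was the highest mutant for 12 (80%, against 31.6%). These counts are of members kept in the table, where the lowest total of any gene over the 8 libraries was 26 reads. Some members reach that total only through these 2 libraries. *Jon99Ci* and *thetaTry*, for example, held at most 1 and 2 reads in any other library. Fold changes between genotypes for the 13 genes rest on these libraries and ran from -0.78 to 1.2, none passing the test, with standard errors of 0.89 to 1.75. At an unadjusted p under 0.05 there was none of the 13 by limma, or with voom weights.

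**Figure D5:**
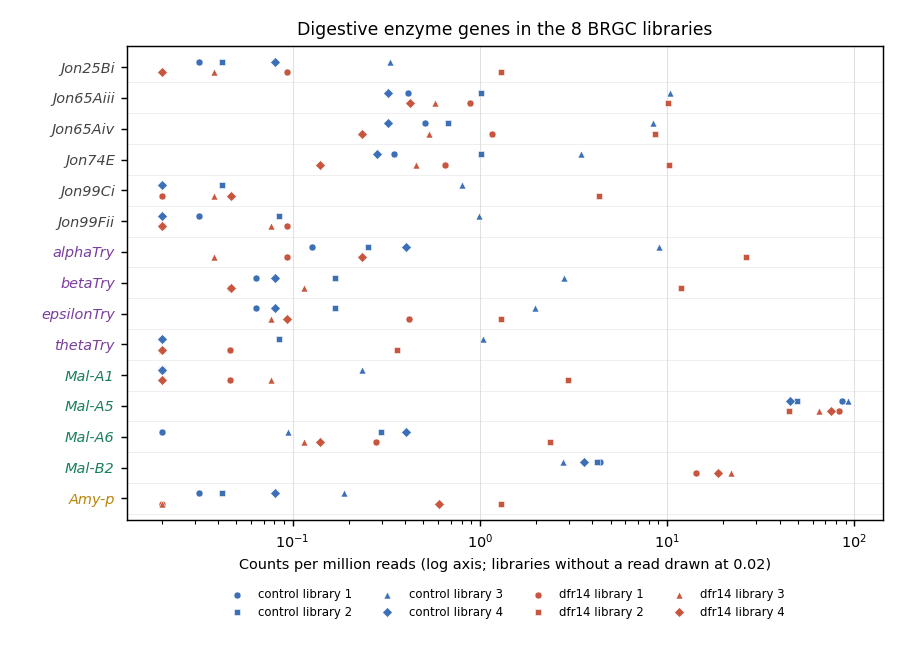
CPM on a log axis for the 15 digestive enzyme genes of the BRGC table in the 8 BRGC libraries (blue, control; red, dfr14; libraries without a read drawn at 0.02). Mal-A5 and Mal-B2 are found in all libraries, Mal-B2 higher in each mutant library, while for most other genes control library 3 and dfr14 library 2 stand above the rest.

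The trypsins showed this most strongly. *alphaTry* had 4, 6, 192 and 10 reads in the controls and 2, 511, 1 and 5 reads in *dfr14*, or 9.04 CPM in control library 3 and 26.5 CPM in *dfr14* library 2 against 0.04 to 0.41 CPM in the other 6. *betaTry* reached 2.83 and 11.9 CPM in the same libraries, against 0.05 to 0.17 CPM elsewhere. *epsilonTry* was lower, at 1.98 and 1.3 CPM (42 and 25 reads), and *thetaTry* had 22 and 7 reads there and at most 2 in any other library.

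Among the Jonah genes, *Jon65Aiii* (10.4 and 10.2 CPM) and *Jon65Aiv* (8.39 and 8.66 CPM) were nearly equal in the 2 libraries, and 0.23 to 1.16 CPM elsewhere. *Jon74E* had 3.49 CPM in control library 3 and 10.2 CPM in *dfr14* library 2. *Jon99Ci* had 17 and 84 reads there and at most 1 in any other library. *Jon99Fii* departed from the group, with 21 reads in control library 3 and 0 in *dfr14* library 2, which allows at most 3 reads there.

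The remaining maltases were seen in *dfr14* library 2 above all. *Mal-A1* had 57 reads there (2.96 CPM), 5 in control library 3 and at most 2 in the others, and *Mal-A6* had 46 reads (2.39 CPM) and at most 10 in the others. *Amy-p* had 25 reads in *dfr14* library 2 and 13 in *dfr14* library 4, and at most 4 elsewhere.

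Set against the body means of the same genotype, which come from a separately scaled table and other larvae, the levels in these 2 libraries were not a fixed share. In control library 3 the 13 genes stood at 0.0913% (*Mal-A6*, 2 reads) to 5.93% (*Amy-p*, 4 reads) of their control body mean. The ends of this range thus rest on few reads. *Jon65Aiii* was at 0.303% there and *alphaTry* at 1.24%. In *dfr14* library 2 they stood at 0% (*Jon99Fii*, no read) to 4.76% (*Amy-p*, 25 reads) of the *dfr14* body mean. *Jon65Aiii* was at 0.315% there and *alphaTry* at 3.18%. The share thus differed many-fold between genes of the same library. Whether RNA of gut tissue was carried into these libraries was not tested. The 3 midgut markers measured there, out of 7, had a summed level of 140 CPM in control library 3 against 152 to 171 CPM in the other controls, and 252 CPM in *dfr14* library 2 against 218 to 261 CPM. These sums cannot show a carried share of that size, since the shares of *Jon65Aiii* and *alphaTry* would add only 1.28 to 5.21 CPM of the markers' control body level and 1.79 to 18 CPM of their *dfr14* body level. *mex1* and *Vha100-4* of that list were not analysed in the BRGC.

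The same pattern was looked for over all genes. Of the 9731 genes of the BRGC, 26 (0.267%) exceeded, in both control library 3 and *dfr14* library 2, 2 times the highest of the other 6 libraries, and 10 of these were members. Counts of that size were also found for other pairs of a control and a mutant library, 31 genes for control library 3 with *dfr14* library 4 and 17 for control library 1 with *dfr14* library 3. A gene can meet this rule for 1 pair only, so these 10 members could not be counted for another pair. The remaining members met it for no pair. The other 16 of the 26 genes include the serine protease genes *yip7* and *CG18180*, the carboxypeptidase genes *CG12374* and *CG17633* and the lipase gene *CG6295*, which stand in the lists above. *CG12374* was at 27.3 and 27.6 CPM in the 2 libraries and at most 1.22 CPM in the others, and *yip7* at 8.86 and 7.0 CPM and at most 1.22 CPM. Their body levels were unlike. *yip7* had 2620 to 6057 CPM in control and 184 to 2014 CPM in *dfr14* bodies. *CG12374* had only 0.049 to 3.27 CPM in control bodies, below its level in control BRGC library 3, and 2.64 to 94.8 CPM in *dfr14* bodies. *CG5107*, also of the 26, had 11.4 CPM in *dfr14* BRGC library 2 and a body mean of 0.49 CPM. Of the 26 genes, 24 are in the body table. The 2 BRGC libraries were chosen for their member levels after these were seen. Some members are in the BRGC table only through their reads there, so the count of 10 is a description.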

How the data were processed

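Members, lists and libraries were chosen with earlier results of these data known. Per the labels and methods, stranded poly-A libraries were processed by the authors with Trim Galore, STAR and featureCounts on BDGP6 (versions not given in the labels), scaled by TMM in edgeR and deposited as log2 CPM with a prior count of 2. The tables' own fold changes, p-values and FDR, and 16 columns repeating the log2 values less a floor, were not used. Removing the prior count gave whole reads (100% of values within 0.001 of a whole read), used for depth, CPM and alternatives. The study used an exact test on counts, whereas here the deposited log2 values were tested by the trended fit of limma 3.58.1 in R 4.3.3, checked on simulated data. Summaries used Python 3.11.15, pandas 2.3.3 and matplotlib 3.10.9. Positions and union exon lengths are from a BDGP6 annotation, which holds all 38 member IDs. Genes were named if they passed in either tissue, were among the 3 most abundant of a family in the body, among the 4 most positive or negative body changes with a mean of at least 1 CPM, or had at least 10 reads and 5 times the next library in 1 BRGC library. Other genes named were chosen after their values were seen. Intervals are 95% confidence intervals of the fitted genotype difference, estimated from the spread between libraries.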

Additional observations from a re-analysis of the deposited data

Results flagged for a closer look

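Among 88 groups of 4 libraries examined on the log2 scale, for named genes and for summed levels, 3 had a library far from the other 3 by Dixon's ratio (past its 95% critical value), where chance gives about 1 in 20. All were BRGC groups. *Jon99Ci* and *Mal-A1* had been named partly for a high level in a single BRGC library, so that rate does not hold for them. *Jon99Ci* was at 4.36 CPM in *dfr14* library 2 and 0 to 0.047 CPM in the other mutants. *betaTry* was at 11.9 CPM in *dfr14* library 2 and 0.046 to 0.115 CPM in the others. *Mal-A1* was at 0.236 CPM in control library 3, from 5 reads. No other control held a read, which fixes the ratio at 1 whatever the level.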

How the results depend on the processing

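The alternatives were voom weights, no intensity trend, library size alone, RLE factors, a prior count of 0.5, a filter (10 reads in 4 libraries) and leaving out each library. Leaving out control BRGC library 3 and *dfr14* BRGC library 2 together was chosen after seeing the data. The count of members passing in the body was 0 in all but 1 of 14 alternatives (0 to 1 with a library left out) and in the BRGC it was 1 in all 15. Over all genes the body count of 177 became 62 with voom weights and 72 to 245 with a library left out, and the BRGC count of 1554 became 901 to 1613. With library size alone the BRGC calls split into 782 higher and 988 lower, against 980 and 574. Of 21 named members in the body, 16 kept the sign of their log2 fold change in every alternative. With a library left out, the others ran from -0.54 to 0.19 (*Jon65Aiii*), -0.066 to 0.86 (*Jon65Aiv*), -0.25 to 0.094 (*Mal-A8*), -0.077 to 0.43 (*alphaTry*) and -0.094 to 1.0 (*betaTry*), and *alphaTry* was -0.12 with library size alone. Of 14 in the BRGC, 4 kept their sign (*Amy-p*, *Mal-A1*, *Mal-A6*, *Mal-B2*). With a library left out, the others ran from -0.85 to 1.15 (*Jon65Aiii*), -0.83 to 1.09 (*Jon65Aiv*), -0.99 to 0.85 (*Jon74E*), -0.60 to 1.53 (*Jon99Ci*), -1.21 to 0.014 (*Jon99Fii*), -0.18 to 0.17 (*Mal-A5*), -1.98 to 1.0 (*alphaTry*), -1.28 to 1.29 (*betaTry*), -0.47 to 1.03 (*epsilonTry*) and -0.97 to 0.43 (*thetaTry*). Without both libraries, *Jon74E* was -0.32, *Jon99Fii* 0.18, *Mal-A5* 0.35 and *betaTry* -0.28, and with voom weights *Mal-A5* was 0.0021. None of these passed the test. The cause was not tested. No paired analysis was possible because the columns carry no replicate numbers. The planned search of promoters for GATA letters and comparison of proteins were not run, since no such sequences were used here. Depth limits values from few reads, but standard errors in the body were also large for some abundant members (0.55 for *Jon65Aiii*, 0.72 for *Jon74E*).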
